A study of Homo sapiens with 12 samples.

Results

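The genes described here are 10 genes of heme breakdown and of iron storage and transport, chosen by name among the 58735 genes counted in HK-2 cells. They are HMOX1, HMOX2, BLVRA and BLVRB for heme breakdown, FTH1, FTL and NCOA4 for iron storage, and TFRC, SLC40A1 and SLC48A1 for transport. HK-2 is an immortalized human proximal tubular epithelial line, and here it was grown in DMEM/F12 with 10% fetal bovine serum. The RNA of 12 samples was sequenced, 3 of control cells given water and 3 each of cells kept for 48 h in the iodinated contrast medium iohexol (75 mg I/mL), the platinum drug cisplatin (5 μM) or the glycopeptide antibiotic vancomycin (4 mM). Each drug was used at a single dose and time as a cell model of drug-induced kidney injury. No source states that the replicates came from separate cultures, so that the p-values measure only the spread between these samples, which may be technical.

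Heme oxygenase opens the heme ring and releases iron, carbon monoxide and biliverdin, and biliverdin reductase turns biliverdin into bilirubin. Free iron is stored inside ferritin, a shell built of heavy (FTH1) and light (FTL) subunits, of which the heavy subunit oxidizes the iron. Iron enters through the transferrin receptor (TFRC) and leaves through ferroportin (SLC40A1). Iron regulatory proteins adjust these genes after transcription by binding hairpins in the mRNA called iron-responsive elements. When iron is scarce they block translation of mRNAs that carry the hairpin in the 5′ UTR and protect TFRC mRNA through hairpins in its 3′ UTR. HMOX1, FTH1, FTL, BLVRB and SLC40A1 are also known targets of the transcription factor NRF2, and BACH1 represses HMOX1 until heme binds it. In the proximal tubule this system handles the iron and heme that are reabsorbed from the filtrate.

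The iron-responsive elements were searched in the annotated transcripts of GENCODE release 29 (GRCh38), because they mark the members on which iron regulatory proteins can act. The pattern was a lower stem of 5 bases, an unpaired C, an upper stem of 5 paired bases and a loop CAGTGN. At least 4 of the 5 lower pairs had to form, with G-T pairs allowed. It was found in 29 of 19659 protein-coding genes (0.148%), which include 4 of the 10 members with 7 matches between them. The matches are written 5′ to 3′ with T as in the transcripts, and the capitals mark the loop.
FTH1, 5′ UTR, chr11:61967575-61967601, minus strand: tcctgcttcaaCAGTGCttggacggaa
FTL, 5′ UTR, chr19:48965336-48965362, plus strand: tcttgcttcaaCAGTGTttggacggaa
SLC40A1, 5′ UTR, chr2:189580662-189580688, minus strand: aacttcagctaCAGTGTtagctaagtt
TFRC, 3′ UTR, chr3:196050464-196050490, minus strand: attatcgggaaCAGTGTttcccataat
TFRC, 3′ UTR, chr3:196050511-196050537, minus strand: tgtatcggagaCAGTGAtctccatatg
TFRC, 3′ UTR, chr3:196050576-196050602, minus strand: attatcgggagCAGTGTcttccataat
TFRC, 3′ UTR, chr3:196050980-196051006, minus strand: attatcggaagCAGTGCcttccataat

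The total count per sample was 14057282 to 18177109, highest in the vancomycin group, and values are given as CPM, counts on a common library scale set by the total count and a TMM factor. A count of 3 was taken as the floor of detection and covers counting error only, and every member lay above it in every sample. Of 20 proximal tubule markers, 10 reached 1 CPM in every control sample, while the endocytic receptor LRP2 and the anion transporter SLC22A6 had no counts there. The summed level of these 20 markers was 3376 to 3446 CPM in the vancomycin samples, 2847 to 2960 CPM in the control samples, 2119 to 2335 CPM in the iohexol samples and 2117 to 2176 CPM in the cisplatin samples. The summed level of 16 markers of other cell types was 73.8 to 81.0 CPM in the vancomycin samples, 53.0 to 56.7 CPM in the cisplatin samples, 40.8 to 50.05 CPM in the control samples and 36.5 to 39.5 CPM in the iohexol samples, and their part in the results was not tested. In the vancomycin group the fibroblast genes COL1A1 and DCN, at means of 41.8 and 30.5 CPM, made up most of the latter sum. Their means in the control group were 30.6 and 12.3 CPM. The endothelial gene PECAM1 went the other way, with means of 1.32 CPM in the control group and 0.083 CPM with vancomycin. The erythroid gene HBB had no counts in the control samples. In bulk RNA, a change in the number of cells of a type and a change in RNA per cell cannot be told apart.

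All 10 members passed the filter on low counts in every comparison. Genes are said to rise or fall where the Benjamini-Hochberg adjusted p of edgeR's quasi-likelihood test was under 0.05, and DEGs also had a log2 fold change above 1 or below -1. With vancomycin 8 of the 10 passed the test, 6 higher and 2 lower, where 57.9% of all genes tested passed it, 29.1% higher and 28.8% lower. Of these 8, 6 were DEGs (5 up-regulated, 1 down-regulated), where 18.5% of the genes tested were DEGs, 10.8% in the up and 7.65% in the down direction. With cisplatin 7 members passed, 3 higher and 4 lower, where 59.8% of all genes did, 29.2% higher and 30.6% lower. With iohexol 5 passed, 4 higher and 1 lower, where 21% of all genes did, 11.2% higher and 9.77% lower. The only DEG with cisplatin was BLVRB, up-regulated, where 16.3% of all genes tested were DEGs and 7.62% were up-regulated ones. The only DEG with iohexol was FTH1, also up-regulated, where these shares were 5.28% and 4.02%. This DEG call was lost under 8 of 14 alternatives, since the log2 fold change lay at the limit. The drug samples did not overlap the control samples for 8 members with vancomycin, 7 with cisplatin and 7 with iohexol, where this held for 63.2%, 65.1% and 37.9% of all genes tested. The median log2 fold change of the members was 0.70 with vancomycin, -0.17 with cisplatin and 0.10 with iohexol, and that of all genes tested was -0.01, 0.01 and 0.01. When libraries were scaled by their size alone, 5 members rose and 2 fell with cisplatin, with a median of 0.05, while the median of all genes moved from 0.01 to 0.22. The 3 drug comparisons share the same control samples.

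**Figure D1:**
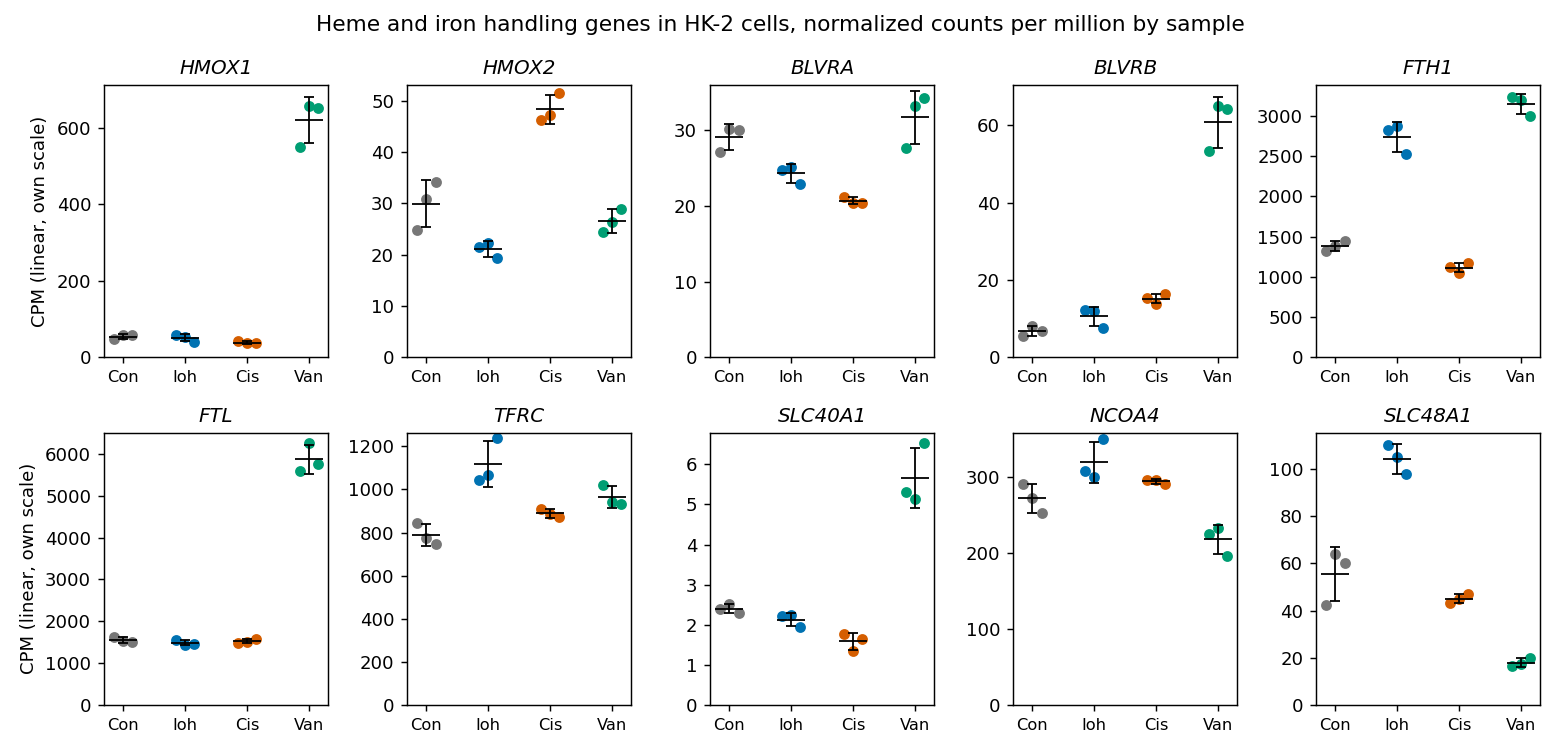
CPM on a linear axis for each of the 10 genes (own scale, from 0) in the control (Con), iohexol (Ioh), cisplatin (Cis) and vancomycin (Van) samples; points are samples, the long bar is the mean and the short bars are ± 1 SD (n = 3). HMOX1, BLVRB, FTL and SLC40A1 stand highest in the 3 vancomycin samples, while SLC48A1 is lowest there and highest with iohexol.

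HMOX1 encodes the inducible heme oxygenase and was the member with the highest log2 fold change. It was at 47.7, 56.8 and 57.9 CPM in the control samples, 58.7, 53.9 and 40.1 CPM with iohexol, 43.3, 35.9 and 36.2 CPM with cisplatin and 551, 658 and 651 CPM with vancomycin. The vancomycin samples lay far above all others, the cisplatin samples lay below the control samples, and the iohexol samples overlapped them. The log2 fold change was 3.47 with vancomycin (standard error 0.10, adjusted p = 4.35e-18 in edgeR) and -0.50 with cisplatin (standard error 0.09, adjusted p = 0.000206 in edgeR). With iohexol it was -0.07 (adjusted p = 0.764 in edgeR), and 0.08 without iohexol replicate 3. HMOX1 (ENSG00000100292) lies on the plus strand at chr22:35380361-35394214 of GRCh38, and 1.67% of its 31-base sequences occur in another gene.

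HMOX2, the constitutive heme oxygenase, did not follow HMOX1. It was at 24.9, 30.9 and 34.1 CPM in the control samples, 21.6, 22.3 and 19.3 CPM with iohexol, 46.2, 47.2 and 51.5 CPM with cisplatin and 24.3, 26.3 and 28.9 CPM with vancomycin. The cisplatin samples lay above and the iohexol samples below all control samples. It rose with cisplatin by 0.68 on the log2 scale (standard error 0.10, adjusted p = 1.5e-05 in edgeR). It fell with iohexol by 0.49 on the log2 scale (standard error 0.13, adjusted p = 0.023 in edgeR), a call that was lost without iohexol replicate 1, control replicate 2 or control replicate 3 (adjusted p = 0.0555, 0.0762 and 0.0871 in edgeR). With vancomycin the log2 fold change was -0.22 (adjusted p = 0.131 in edgeR), and the gene passed the test without control replicate 1 (adjusted p = 0.018) and with library size only (adjusted p = 0.0454). HMOX2 (ENSG00000103415, chr16:4474690-4510347) shares 228 exonic bases (6.01%) with NMRAL1 on the other strand, which passed the test with none of the drugs. Their reads cannot be told apart where the genes overlap, since the strand setting of the counting is not given.

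The 2 biliverdin reductases differed in their response. BLVRB encodes biliverdin reductase B, which also reduces flavins. It was at 5.59, 8.15 and 6.84 CPM in the control samples, 12.1, 12.0 and 7.62 CPM with iohexol, 15.4, 13.8 and 16.2 CPM with cisplatin and 53.2, 64.9 and 64.2 CPM with vancomycin. The cisplatin and vancomycin samples did not overlap the control samples, and iohexol replicate 3 lay below control replicate 2. BLVRB was an up-regulated DEG with vancomycin (log2 fold change 3.10, standard error 0.14, adjusted p = 5.41e-15 in edgeR) and with cisplatin (1.13, standard error 0.14, adjusted p = 2.62e-06 in edgeR). The rise with iohexol was 0.64 (standard error 0.21, adjusted p = 0.0483 in edgeR). It was lost without any 1 of iohexol replicates 1 and 2 and control replicates 1, 2 and 3, with adjusted p in edgeR of 0.163, 0.163, 0.133, 0.0517 and 0.116. BLVRA, the main adult biliverdin reductase, was at 27.1 to 30.2 CPM in the control samples, 22.9 to 25.2 CPM with iohexol, 20.4 to 21.2 CPM with cisplatin and 27.7 to 34.2 CPM with vancomycin. It fell with cisplatin, where the samples lay below all controls, by 0.50 on the log2 scale (standard error 0.09, adjusted p = 0.000206 in edgeR). It passed the test with neither of the other drugs (log2 fold change -0.24 with iohexol and 0.08 with vancomycin, adjusted p = 0.143 and 0.563 in edgeR). BLVRB (ENSG00000090013) lies at chr19:40447765-40465840 and BLVRA (ENSG00000106605) at chr7:43758680-43807342.

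The ferritin subunits were the members with the highest levels per kilobase in every group, and they moved apart with iohexol. FTH1 was at 1319, 1385 and 1440.1 CPM in the control samples, 2822, 2870.4 and 2519 CPM with iohexol, 1122, 1050.3 and 1167 CPM with cisplatin and 3238, 3197 and 2999 CPM with vancomycin. The iohexol and vancomycin samples lay above and the cisplatin samples below all control samples. Its log2 fold change was 1.00 with iohexol (standard error 0.08, adjusted p = 4.82e-06 in edgeR), 1.14 with vancomycin (standard error 0.08, adjusted p = 2.03e-11) and -0.31 with cisplatin (standard error 0.05, adjusted p = 7.58e-05). With iohexol FTH1 rose under every alternative run (adjusted p at most 8.03e-05), but its log2 fold change, which a DEG needs above 1, was 0.994 with DESeq2 and with RLE factors, 0.967 with no filter and 0.987 in the fit of all 12 samples. It was 0.978 and 0.960 without iohexol replicates 1 and 2 and 0.970 and 0.991 without control replicates 1 and 2. The call with cisplatin was lost with scaling by library size only (log2 fold change -0.10, adjusted p = 0.125 in edgeR). Relative to the median of all genes FTH1 was lower under both scalings. FTL was at 1632, 1524 and 1499 CPM in the control samples, 1556, 1439.5 and 1467 CPM with iohexol, 1481, 1513 and 1579.9 CPM with cisplatin and 5587, 6265 and 5751 CPM with vancomycin. The iohexol and cisplatin samples overlapped the control samples and the vancomycin samples stood above all others. FTL rose with vancomycin by 1.88 on the log2 scale (standard error 0.08, adjusted p = 4.69e-15 in edgeR). The log2 fold change was -0.04 with iohexol (adjusted p = 0.726 in edgeR, 0.03 with library size only) and -0.03 with cisplatin (adjusted p = 0.662 in edgeR). With library size only FTL rose with cisplatin by 0.19 (adjusted p = 0.00266 in edgeR), less than the median of all genes did.

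**Figure D2:**
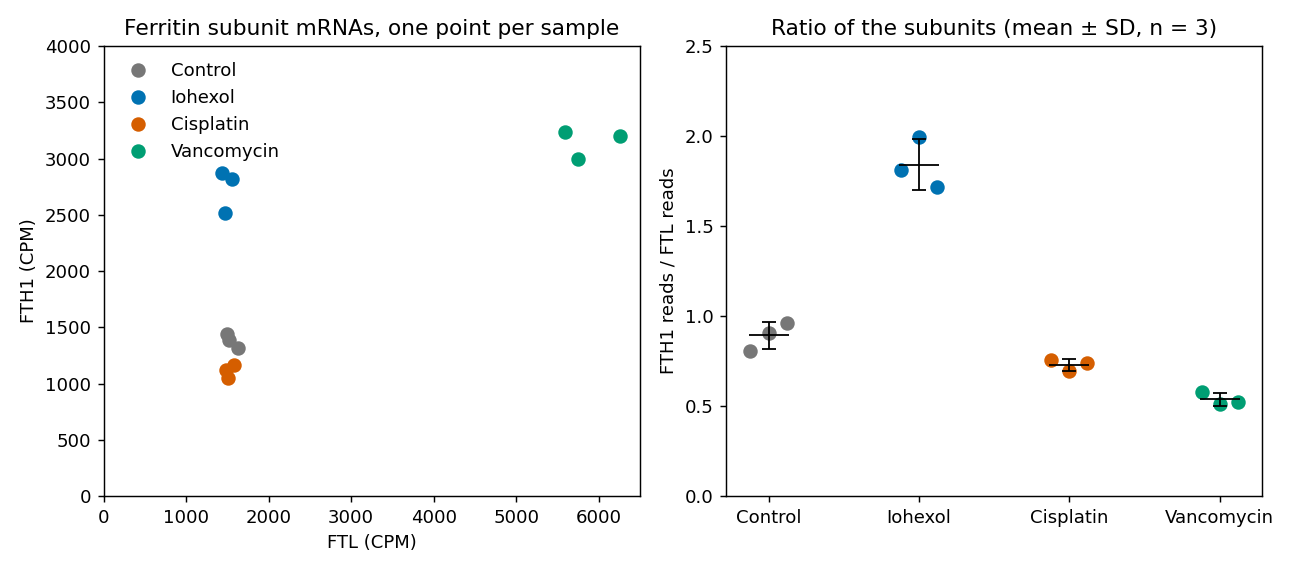
Left, FTH1 against FTL in CPM (linear axes from 0), one point per sample; right, the FTH1 reads divided by the FTL reads of each sample, with the mean and ± 1 SD (n = 3). The iohexol samples leave the control samples along FTH1 alone, and the vancomycin samples along both axes.

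The ratio of FTH1 to FTL reads was 0.808, 0.908 and 0.961 in the control samples, 1.81, 1.99 and 1.72 with iohexol, 0.757, 0.694 and 0.739 with cisplatin and 0.580, 0.510 and 0.522 with vancomycin. No drug group overlapped the control group. The log2 ratio differed from that of the control group by 1.05 with iohexol, -0.29 with cisplatin and -0.73 with vancomycin, each with a p of 0.1 in an exact two-sided permutation test, the smallest that 3 samples against 3 allow. This ratio does not depend on the scaling between libraries. Both subunits have many processed copies in the genome, and 33.3% of the 31-base sequences of FTL and 27.1% of those of FTH1 occur in other genes, so that some reads are uncertain between them. Reads counted on the copies were 0.571% to 1.11% of all ferritin reads over the 12 samples. The FTH1 copies with the most counts were FTH1P7 on chromosome 13, with 245 to 267 counts in the iohexol samples, 200 to 214 in the vancomycin samples, 112 to 157 in the control samples and 108 to 125 in the cisplatin samples, and FTH1P2 on chromosome 1. Among the FTL copies, FTLP3 on chromosome 20 had 10 to 23 counts in the control samples and 38 to 53 with vancomycin. FTH1 (ENSG00000167996, chr11:61959718-61967660) shares 1267 of its 2030 exonic bases (62.4%) with BEST1 on the other strand, whose mean level was 1.44 CPM in the vancomycin group, 1.04 CPM in the iohexol group, 0.422 CPM in the cisplatin group and 0.401 CPM in the control group. Where these exons overlap, reads of FTH1 and BEST1 cannot be told apart.

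FTL (ENSG00000087086, chr19:48965301-48966878) has 878 exonic bases, and short genes stood higher with vancomycin in general. Among 118 protein-coding genes of up to 1000 bases the median log2 fold change with vancomycin was 0.69 and 41.5% were up-regulated DEGs. In the class over 1000 and up to 2000 bases, which holds BLVRA and BLVRB, the median was 0.46 and 24.3% were up-regulated DEGs. In the class over 2000 and up to 3000 bases, which holds HMOX1 and FTH1, they were 0.22 and 16.3%. Over 5000 bases they were -0.11 and 6.7%. With cisplatin the median was 0.23 up to 1000 bases and -0.16 over 5000 bases. Of these classes, 17.4% and 2.55% were up-regulated DEGs, and 1.83% and 13% were down-regulated ones. With iohexol the medians of these classes were -0.11 and -0.01. The part of transcript length in the changes of the members and of the other genes named here was not tested.

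NCOA4 encodes the receptor that carries ferritin to the lysosome for release of its iron. It was at 252 to 291 CPM in the control samples, 299.8 to 349.97 CPM with iohexol, 290.3 to 296 CPM with cisplatin and 196 to 232 CPM with vancomycin. The vancomycin samples lay below and the iohexol samples above all control samples. It fell with vancomycin by 0.36 on the log2 scale (standard error 0.09, adjusted p = 0.00149 in edgeR). The log2 fold changes were 0.25 with iohexol (adjusted p = 0.0749 in edgeR) and 0.11 with cisplatin (adjusted p = 0.13 in edgeR). Both passed the test with library size only (adjusted p = 0.0253 and 0.000118 in edgeR), the former also in the fit of all 12 samples (adjusted p = 0.046) and the latter without control replicate 1 (adjusted p = 0.00223). NCOA4 (ENSG00000266412, chr10:46005088-46030714) shares 13.04% of its 31-base sequences with other genes. Of the 14 genes of ferritin delivery to lysosomes, NCOA4 among them with lysosomal and autophagy genes, 7 rose and 2 fell with vancomycin, 4 rose and 5 fell with cisplatin and 2 rose with iohexol. Their medians were 0.23, 0.04 and 0.08 on the log2 scale. Over all genes tested, 29.1% rose and 28.8% fell with vancomycin, 29.2% and 30.6% with cisplatin, and 11.2% and 9.77% with iohexol. With library size only 8 of the 14 rose and 5 fell with cisplatin, with a median of 0.26. Without GABARAP, which had under 10 counts in a control sample, 6 rose and 2 fell with vancomycin, with a median of -0.0045. The ATG8-family genes GABARAP (4 to 18 counts in the control samples), GABARAPL1 and MAP1LC3B were up-regulated DEGs with vancomycin, with log2 fold changes of 1.78, 1.45 and 1.09.

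TFRC, the receptor for transferrin-bound iron, was higher with each drug, by less than 1 on the log2 scale. It was at 844, 776 and 747 CPM in the control samples, 1046, 1065 and 1239 CPM with iohexol, 911, 885 and 870.2 CPM with cisplatin and 1022, 941 and 932 CPM with vancomycin. All drug samples lay above all control samples. The log2 fold change was 0.52 with iohexol (standard error 0.09, adjusted p = 0.00157 in edgeR), 0.17 with cisplatin (standard error 0.06, adjusted p = 0.0159) and 0.25 with vancomycin (standard error 0.09, adjusted p = 0.0156). The call with cisplatin was lost without cisplatin replicate 1 or 2 or control replicate 2 or 3 (adjusted p = 0.083, 0.0534, 0.0866 and 0.0783 in edgeR) and in the fit of all 12 samples (0.0693). The call with vancomycin was lost without vancomycin replicate 1 or control replicate 2 or 3 (adjusted p = 0.0608, 0.0791 and 0.0929 in edgeR) and with library size only (0.0786). TFRC (ENSG00000072274) lies on the minus strand at chr3:196027183-196082189.

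SLC40A1 encodes ferroportin, the iron exporter, and was the member with the lowest level per kilobase. It was at 2.39, 2.51 and 2.30 CPM in the control samples, 2.21, 2.24 and 1.94 CPM with iohexol, 1.76, 1.35 and 1.65 CPM with cisplatin and 5.32, 5.13 and 6.53 CPM with vancomycin, from 22 to 106 counts per sample. All vancomycin samples lay above and all iohexol and cisplatin samples below the control samples. It was an up-regulated DEG with vancomycin (log2 fold change 1.19, standard error 0.23, adjusted p = 9.69e-05 in edgeR). The log2 fold change was -0.60 with cisplatin (standard error 0.27, adjusted p = 0.0639 in edgeR, 0.0423 in the fit of all 12 samples) and -0.16 with iohexol (standard error 0.24, adjusted p = 0.698 in edgeR). SLC40A1 (ENSG00000138449) lies at chr2:189560579-189583758, and none of its 31-base sequences occurs in another gene.

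SLC48A1 encodes HRG1, which moves heme out of lysosomes and endosomes into the cytosol. It was at 42.4, 64.1 and 60.0 CPM in the control samples, 110.2, 105 and 97.7 CPM with iohexol, 43.0, 45.1 and 47.0 CPM with cisplatin and 16.4, 17.4 and 20.1 CPM with vancomycin. The iohexol samples lay above and the vancomycin samples below all control samples, and control replicate 1 fell just below the cisplatin samples. It was a down-regulated DEG with vancomycin (log2 fold change -1.67, standard error 0.14, adjusted p = 2.5e-10 in edgeR) and rose with iohexol (0.93, standard error 0.13, adjusted p = 0.000517 in edgeR). The fall with cisplatin was -0.31 (standard error 0.11, adjusted p = 0.0258 in edgeR). It was lost with library size only (adjusted p = 0.512 in edgeR) and without cisplatin replicate 1 or 2 or control replicate 2 or 3 (adjusted p = 0.0978, 0.0612, 0.16 and 0.0721). SLC48A1 (ENSG00000211584, chr12:47753916-47782753) shares 83 exonic bases (1.69%) with RAPGEF3 on the other strand. RAPGEF3 had log2 fold changes of 0.88 with iohexol, -0.23 with cisplatin and -0.97 with vancomycin, in the same directions as SLC48A1. HDAC7, which shares 32 exonic bases (0.65%) with it on the other strand, had log2 fold changes of -0.44, -0.30 and -0.28, the first opposite to SLC48A1. The part of the shared bases in these values was not tested.

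**Figure D3:**
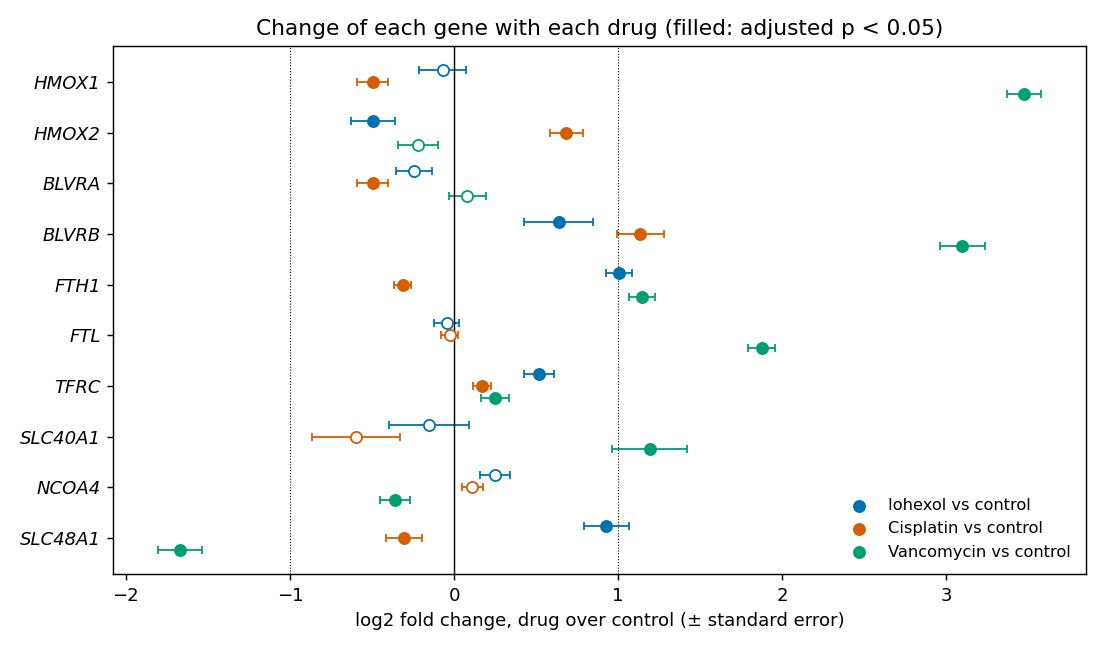
Log2 fold change of each gene with each drug over the control group, with bars of ± 1 standard error from edgeR; filled points had an adjusted p under 0.05, open points did not, and dotted lines mark -1 and 1. HMOX1 and BLVRB reach 3.47 and 3.10 with vancomycin, FTH1 is near 1 with both iohexol and vancomycin, and SLC48A1 lies at opposite sides of 0 with these drugs.

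Per kilobase of exon, the order in the control group was FTL (1767 CPM per kilobase), FTH1 (680.4), TFRC (100.03), NCOA4 (66.6), HMOX1 (22.5), BLVRA (16.0), SLC48A1 (11.3), HMOX2 (7.90), BLVRB (4.06) and SLC40A1 (0.555). Only SLC48A1 and HMOX2 overlapped as neighbours in this order. With vancomycin HMOX1 was the third, at 258 CPM per kilobase, above TFRC at 122, and BLVRB at 36.0 stood above BLVRA at 17.4. The 10 genes together took 0.954% to 1.01% of the total count in the vancomycin samples, 0.589% to 0.614% in the iohexol samples, 0.439% to 0.459% in the cisplatin samples and 0.399% to 0.410% in the control samples. FTL alone took 0.501% to 0.554% with vancomycin and 0.146% to 0.158% in the control samples.

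The drugs were also compared with each other, in a fit of all 12 samples, at their single doses, which are not matched. Between vancomycin and iohexol all 10 members passed the test, 7 higher and 3 lower with vancomycin (background 56.6%, 29% higher and 27.6% lower). Leaving out single samples gave 7 to 10, and with library size only 7 passed, 4 higher and 3 lower, with the median of the members at 0.15 in place of 0.36. Between vancomycin and cisplatin 9 passed, 6 higher and 3 lower (background 64.7%, 34.7% higher and 30% lower), and between cisplatin and iohexol 6 passed, 2 higher and 4 lower with cisplatin (background 54%, 26% higher and 27.9% lower). HMOX1 was higher with vancomycin than with iohexol by 3.61 and than with cisplatin by 4.01 on the log2 scale (adjusted p = 1.36e-14 and 2.48e-15 in edgeR). FTL was higher with vancomycin by 1.98 and 1.94 (adjusted p = 1.36e-14 and 1.03e-14 in edgeR). SLC48A1 passed the test in all 3 comparisons between drugs, as did HMOX1, HMOX2, BLVRB and FTH1. The call of HMOX2 between vancomycin and iohexol was lost with library size only (adjusted p = 0.379 in edgeR). It was also lost without vancomycin replicate 3 (0.0958) or iohexol replicate 3 (0.0621). Between cisplatin and iohexol the samples of HMOX1 overlapped, and its call was lost with library size only (0.0666) or without iohexol replicate 1 (0.0652). The call of BLVRB there was lost without iohexol replicate 3 (0.0519). The log2 fold change of SLC48A1 was -2.54 with vancomycin against iohexol (adjusted p = 2.56e-12 in edgeR). With cisplatin against iohexol it was -1.21 (adjusted p = 4.67e-08 in edgeR). FTH1 differed between vancomycin and iohexol by 0.20 (adjusted p = 0.0213 in edgeR). This call was lost in a fit of those 6 samples (adjusted p = 0.104), without vancomycin replicate 1 (0.0645) and without iohexol replicate 3 (0.0833), and with library size only the log2 fold change was -0.01. HMOX2 was higher with cisplatin than with iohexol by 1.198 on the log2 scale (adjusted p = 3.89e-08 in edgeR).

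Genes of related pathways were taken as lists. Over all genes tested, 29.1% rose and 28.8% fell with vancomycin, 29.2% and 30.6% with cisplatin, and 11.2% and 9.77% with iohexol. DEGs were 18.5%, 16.3% and 5.28% of all genes tested. With library size only the median of all genes with cisplatin was 0.22. Of the 8 enzymes of heme synthesis, 3 rose and 1 fell with vancomycin, 2 rose and 2 fell with cisplatin and 2 rose with iohexol, and none was a DEG. Their medians were 0.21, -0.12 and -0.11, and with library size only the median with cisplatin was 0.098. ALAS1, the rate-limiting enzyme, rose with cisplatin (log2 fold change 0.56, adjusted p = 1.99e-06 in edgeR) and FECH, which inserts the iron, passed the test with none of the drugs. Of the heme carriers and exporters, 7 of 13 tested rose and 2 fell with vancomycin, 4 of 12 rose and 3 fell with cisplatin, and 1 of 13 rose and 1 fell with iohexol, with medians of 0.48, 0.08 and 0.09. With library size only 7 rose and 1 fell with cisplatin (median 0.29). The porphyrin transporter genes ABCG2 (3 to 17 counts in the control samples) and ABCB6 and the heme-binding HEBP1 were up-regulated DEGs with vancomycin (log2 fold changes 3.30, 1.15 and 1.04). Without ABCG2, 6 of 12 genes of the list rose and 2 fell with vancomycin, with a median of 0.33. With iohexol 1 of 12 rose and 1 fell, with a median of 0.03. The receptor LRP1, which takes up heme bound to hemopexin, was a down-regulated DEG with cisplatin (-1.52).

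Of the genes of iron uptake and release, 7 of 13 rose and 1 fell with vancomycin, 5 of 13 rose and 1 fell with iohexol, and 1 of 12 rose and 6 fell with cisplatin, with medians of 0.57, 0.28 and -0.25. With library size only 3 rose and 6 fell with cisplatin (median -0.03). LCN2, which binds iron-carrying siderophores, was an up-regulated DEG with vancomycin (3.28 on the log2 scale) and iohexol (1.95), and the ferrireductase genes STEAP2 and STEAP3 were down-regulated DEGs with cisplatin (-1.36 and -1.02). The other up-regulated DEGs of this list were STEAP1, a member of the same family, and the copper-containing ferroxidase gene CP with vancomycin (1.96 and 1.01) and the endocytic receptor gene CUBN with iohexol (1.48). CUBN had 8 to 15 counts in the control samples and 26 to 33 with iohexol, where it passed the filter, and was not tested with cisplatin. Without CUBN, 4 of 12 genes of the list rose and 1 fell with iohexol, with a median of 0.22. With vancomycin 7 of 12 rose and 1 fell, with a median of 0.60. SLC11A2, the iron importer DMT1, rose with iohexol (0.28, adjusted p = 0.0365 in edgeR) and fell with cisplatin (-0.69, adjusted p = 3.29e-07). Of the iron sensors and hepcidin axis, 2 of 6 rose and 3 fell with cisplatin and also with vancomycin. Their medians were -0.13 with cisplatin (0.084 with library size only) and -0.18 with vancomycin. Without TMPRSS6, which had under 10 counts in a control sample, 1 of 5 rose and 3 fell with each of these drugs. The medians were then -0.35 and -0.41. IREB2, which encodes iron regulatory protein 2, fell with cisplatin and vancomycin (-0.35 and -0.41, adjusted p = 0.000472 and 0.000771 in edgeR). FBXL5, whose product marks that protein for degradation, fell with vancomycin (-0.56, adjusted p = 1.35e-05 in edgeR). ACO1, which encodes iron regulatory protein 1, rose with cisplatin (0.31, adjusted p = 0.000296 in edgeR). HFE and NEO1, which act upstream of hepcidin, were down-regulated DEGs with cisplatin (-1.34 and -1.14). TMPRSS6, a protease of the same axis, had 2 counts in each control sample, 17 to 31 with vancomycin, 13 to 16 with cisplatin and 7 to 15 with iohexol. None of the 5 genes of this list tested with iohexol passed the edgeR test, with a median of 0.09, and 0 had an unadjusted p under 0.05 or passed in DESeq2.

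**Figure D4:**
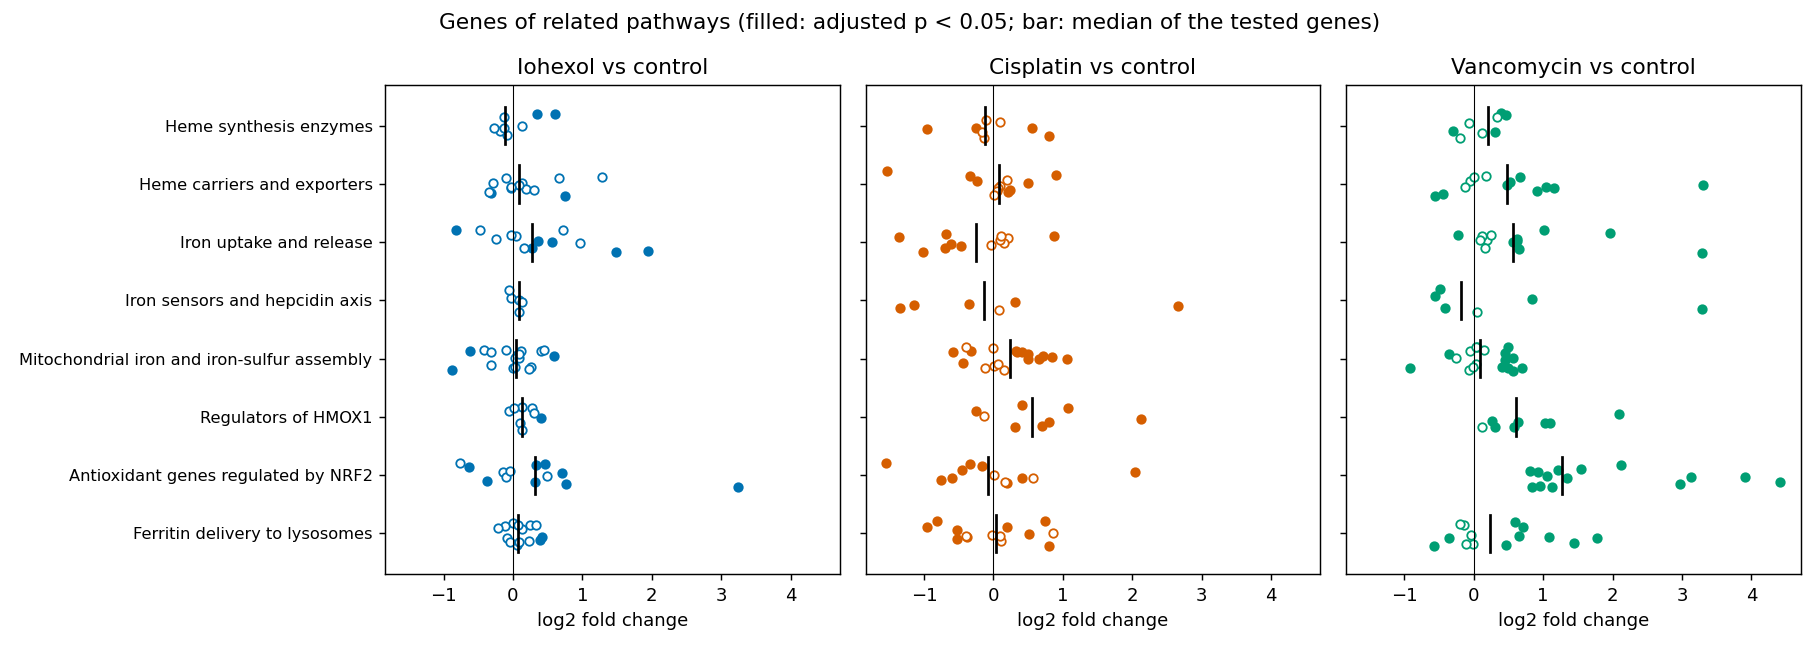
Log2 fold change over the control group of each tested gene in 8 related lists, one panel per drug; filled points had an adjusted p under 0.05, open points did not, and the bar is the median of the list's tested genes. With vancomycin all 14 antioxidant genes regulated by NRF2 are filled and lie to the right of 0, with a median of 1.28, or 1.13 over the 11 with at least 10 counts in every control sample.

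Of the 8 regulators of HMOX1, 7 rose with vancomycin, 6 rose and 1 fell with cisplatin and 1 rose with iohexol, with medians of 0.61, 0.55 and 0.13. With library size only 5 rose with vancomycin, and 6 rose and 0 fell with cisplatin, with medians of 0.54 and 0.77. MAFF and MAFK, small MAF proteins that pair with NRF2 and with BACH1, were up-regulated DEGs with vancomycin (2.09 and 1.09) and with cisplatin (2.13 and 1.07), as was MAFG with vancomycin (1.03). NFE2L2, the gene of NRF2, rose with vancomycin (0.31, adjusted p = 0.0117 in edgeR). KEAP1, which targets NRF2 for degradation, rose with cisplatin (0.70, adjusted p = 4.5e-07 in edgeR) and vancomycin (0.26, adjusted p = 0.0272). BACH1 rose with iohexol and cisplatin (0.40 and 0.41, adjusted p = 0.0292 and 0.000245 in edgeR) and was at 0.12 with vancomycin (adjusted p = 0.312). Of 14 antioxidant genes regulated by NRF2, all 14 rose with vancomycin (29.1% of all genes tested), 10 of them up-regulated DEGs (10.8%), and the median was 1.28. This includes AKR1B10, AKR1C1 and SRXN1, which had under 10 counts in at least 1 control sample, and AKR1B10 (0 to 4 counts in the control samples and 45 to 50 with vancomycin) entered only the vancomycin comparison with the controls. Of the other 11 genes all 11 rose with vancomycin, 7 of them DEGs, with a median of 1.13. With iohexol 6 of 13 rose and 2 fell, and with cisplatin 3 of 12 rose and 6 fell, with medians of 0.32 and -0.08, the latter 0.14 with library size only. The quinone reductase gene NQO1 had log2 fold changes of 1.55 with vancomycin, 0.19 with cisplatin and -0.37 with iohexol (adjusted p = 8.12e-13, 0.0264 and 0.0256 in edgeR). SQSTM1, an autophagy receptor gene, and OSGIN1 were up-regulated DEGs with vancomycin as well, at 2.12 and 2.97. With cisplatin OSGIN1 was an up-regulated DEG (2.04) and SLC7A11, the cystine importer, a down-regulated one (-1.54). AKR1C1, an aldo-keto reductase, had 0 to 8 counts in the control samples and 29 to 41 with iohexol.

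Promoter windows of RefSeq (GRCh38.p14, from 250 bases before to 50 after a gene's start) were at hand for 8 of the 10 members, 10 windows in all, HMOX1 and FTH1 not among them. On either strand, the antioxidant response core TGACNNNGC was in 1 of these 10 windows, of NCOA4, and in 13.3% of all 35116 windows. The AP-1 site TGANTCA was in 1, the other window of NCOA4, and in 7.71% of all windows, and the E-box CACGTG was in 1, of HMOX2, and in 7.26%.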

How the data were processed

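The authors deposited whole-number counts of reads per gene, without normalization, for 12 samples and 58735 genes on GRCh38. Per the labels, poly(A) RNA and an NEBNext kit were used, and the submitters' processing notes list CASAVA 1.8, fastp, HISAT2 2.0.5, featureCounts 1.5.0-p3 and DESeq2 1.20.0. The strand setting of the counting and the annotation release are not given in the sources used here. From the deposited counts, edgeR 4.0.16 (R 4.3.3) was run with TMM factors, filterByExpr (minimum count 10, minimum total 15) and the quasi-likelihood test, in a separate fit of each drug with the control group and in a fit of all 12 samples for contrasts between drugs. Benjamini-Hochberg adjustment covered all genes tested. The standard error is the log2 fold change divided by the square root of F. Replicates of a group differed by more than sampling noise. Total counts were 14057282 to 18177109, and the precision of SLC40A1, with the fewest counts, is the lowest. The fits were tested on simulated counts. Alternatives were DESeq2 1.42.0, limma-voom (limma 3.58.1), RLE factors, library size only, other filters, other sample sets, a replicate block and leaving out each sample, and, chosen after seeing the data, lists without genes under 10 counts in a control sample. The members and lists were chosen with earlier results of these data known. The genes named were all members, up to 4 DEGs per list and comparison with the smallest p, a fixed set of regulators, the ferritin copies with the most counts and, as nearest patterns, the 5 genes with the smallest root mean square difference of log2 CPM minus the control mean over the 9 drug samples. Some genes that this rule covers are not reported here.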

Additional observations from a re-analysis of the deposited data

How the results depend on the processing

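Of 840 recomputed fold changes of the members, 784 kept their direction and their side of the threshold, 40 lost and 9 gained a call, and 7 changed sign. With the replicate number as a block, 3 members passed the test with iohexol in place of 5, since HMOX2 and BLVRB lost their calls (adjusted p = 0.0656 and 0.0648 in edgeR), and all genes passed numbered 2096 in place of 3284. The block changed no other count of members (7, 8, 10, 9 and 6). Same-numbered samples deviated together by a correlation of -0.184 to 0.103, so that the numbers were not taken as a pairing. Leaving out single samples gave 3 to 5 members with iohexol (1849 genes passed without control replicate 2), 5 to 8 with cisplatin, 7 to 9 with vancomycin, 7 to 10 between vancomycin and iohexol, 9 between vancomycin and cisplatin and 5 to 6 between cisplatin and iohexol. The sign changed with library size only for FTL with iohexol (0.027) and with cisplatin (0.19), for FTH1 between vancomycin and iohexol (-0.0072), for TFRC between vancomycin and cisplatin (-0.22) and for NCOA4 between cisplatin and iohexol (0.0101). Without single samples, it also changed for HMOX1 with iohexol (-0.19 to 0.077) and for FTL with cisplatin (-0.065 to 0.0068).

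Library size only moved the share of higher calls among all genes passed from 53.4% to 67.3% with iohexol, from 48.9% to 68% with cisplatin, from 51.3% to 34.5% between vancomycin and iohexol, from 53.6% to 33.6% between vancomycin and cisplatin and from 48.2% to 58.8% between cisplatin and iohexol. With at least 10 counts in every sample, DEGs with cisplatin numbered 1691 in place of 2594, of 13994 genes tested. Limma-voom took the call of BLVRB with iohexol (adjusted p = 0.0682). Except for the shifts of scaling, whose construction gives them, the cause was not tested.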

Other observations

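The genes whose pattern over the 9 drug samples was nearest to that of a member were taken by the root mean square difference of their log2 CPM, each relative to its control mean, among 14698 genes. For HMOX1 these were EEF1A1P5, VGF, DES, AC005912.1 and CCDC8, with differences from 0.24 to 0.49. For FTL they were CRABP2, AMPD3, B2M, RPL9P7 and STX4, from 0.15 to 0.19. TFRC was nearest to ZCWPW1, NUB1, NBPF9, SLC39A6 and SERINC1, from 0.09 to 0.12, and SLC40A1 to TALDO1, UBE2L6, CD276, IGFBP7 and HPCAL1, from 0.15 to 0.17.

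Of the 18 genes of mitochondrial iron and iron-sulfur assembly tested, 9 rose and 3 fell with cisplatin, 8 rose and 2 fell with vancomycin and 1 rose and 2 fell with iohexol, with median log2 fold changes of 0.24, 0.10 and 0.04 against 0.01, -0.01 and 0.01 over all genes tested. Over all genes tested, 29.2% rose and 30.6% fell with cisplatin, 29.1% and 28.8% with vancomycin, and 11.2% and 9.77% with iohexol. With library size only 12 of the 18 rose and 2 fell with cisplatin (median 0.46), where the median of all genes was 0.22. IBA57, a factor of iron-sulfur cluster assembly, was the only DEG among the 18, with cisplatin (log2 fold change 1.06).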
